A study of Mus musculus with 44 samples.

Results

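A set of 6 libraries of α-globin interactions was compared here, out of 44 samples in the series. They were chosen by the number of cells that entered the procedure. Libraries 20kC, 20kD and 20kE were made from 20000 cells each, and libraries 50kB, 50kD and 50kE from 50000 cells each. The study adapted Capture-C, an assay that reads which restriction fragments were ligated to a chosen promoter in a 3C (chromosome conformation capture) library, to small numbers of cells. All 6 libraries came from Ter-119+ erythroid cells. The cells were selected from spleen after female mice of the C57BL/6 strain had received phenylhydrazine, and the labels name no genotype. They were fixed with 2% formaldehyde, digested with DpnII and processed from cell to sequence with LI-Capture-C (low-input Capture-C). The sources used here give no age for the mice and do not say whether the libraries came from separate mice, so p-values measure only the spread between these libraries, which may be technical. Ter-119 marks cells late in the erythroid lineage, and since no expression was measured the cell type could not be checked against other markers.

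The α-globin genes encode a subunit of adult haemoglobin and are active only in erythroid cells. In the mouse a pair of nearly identical genes, Hba-a1 and Hba-a2, is switched on by a cluster of enhancers upstream, several of which lie in introns of the neighbouring gene Nprl3. In erythroid cells these enhancers and the promoters meet within a small self-interacting domain, which appears in Capture-C as a block of frequent interactions around the promoters. Phenylhydrazine destroys red blood cells, and the spleen of a treated mouse fills with erythroid precursors that express these genes strongly.

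The viewpoints were the promoters of Hba-a1 and Hba-a2, whose reads were pooled because the copies could not be told apart. Their sequences are shown for that reason. RefSeq places the 250 bases before the start of Hba-a1 at chr11:32283422-32283671 and those before Hba-a2 at chr11:32296242-32296491, both on the plus strand of GRCm38.p6. Read 5′ to 3′, with a CCAAT and a TATAA sequence in capitals, they are:
Hba-a1: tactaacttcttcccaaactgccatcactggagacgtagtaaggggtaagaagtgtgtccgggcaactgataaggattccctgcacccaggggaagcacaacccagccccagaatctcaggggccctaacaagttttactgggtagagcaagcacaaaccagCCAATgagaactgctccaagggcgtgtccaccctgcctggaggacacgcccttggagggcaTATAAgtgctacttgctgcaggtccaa
Hba-a2: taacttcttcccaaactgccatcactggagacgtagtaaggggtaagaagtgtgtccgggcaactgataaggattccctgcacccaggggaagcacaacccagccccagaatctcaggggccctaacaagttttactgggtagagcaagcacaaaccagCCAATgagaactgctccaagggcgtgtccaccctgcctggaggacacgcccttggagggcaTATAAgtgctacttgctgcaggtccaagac
With Hba-a2 moved by 3 bases, 247 of 247 overlapping bases were identical. CCAAT began 88 bases before the Hba-a1 start and 91 before the Hba-a2 start, and TATAA began 27 and 30 bases before them. Of 32851 mouse promoters in RefSeq, 33.9% held CCAAT and 22.8% held TATAA on either strand of the 250 bases before the start. Neither stretch held GATC, the DpnII cutting site, which 41.9% of promoters did.

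The coordinates of interactions are in mm9. No fragment was listed at chr11:32181399-32185213 and at chr11:32194504-32198003, the widest gaps at the centre of the signal, and these were taken as the viewpoints of Hba-a1 and Hba-a2 by their order. All distances below are from the centre of the nearer gap. The side with lower coordinates, upstream of both genes, is called the enhancer side, and the other the opposite side. In the gene order of GRCm38.p6, going outward from Hba-a1, the enhancer side holds Hba-x, Nprl3, Mpg, Rhbdf1, Snrnp25 and Il9r. Hbq1b lies between the 2 promoters, and Hbq1a and Sh3pxd2b follow on the opposite side. Hba-x encodes the embryonic α-like globin. Windows are not assigned to single genes here, since the gene positions are of another build.

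The yield of unique interactions rose less than the number of cells, and the groups overlapped. Libraries from 20000 cells held 6742 interactions in 20kC, 10329 in 20kD and 8047 in 20kE, with a mean of 8373 ± 1816 (SD, n = 3). Libraries from 50000 cells held 11591 in 50kB, 21250 in 50kD and 9800 in 50kE, with a mean of 14214 ± 6159 (SD, n = 3). Library 50kE thus held fewer interactions than 20kD, although it started from 2.5 times the cells. The means differed 1.70-fold, and the difference of 0.70 on the log2 scale did not pass an exact two-sided permutation test (p = 0.2, Benjamini-Hochberg adjusted p = 0.4 over 6 comparisons). With 3 libraries a group the smallest p that this test can give is 0.1. The spread was wider with more cells, with a coefficient of variation of 43.3% against 21.7%, and this was not tested. It rested on 50kD, without which the mean of the 50000-cell libraries was 10696, the ratio 1.28 and the log2 difference 0.37.

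Per 1000 cells, the 20000-cell libraries gave 337, 516 and 402 interactions in the order 20kC, 20kD and 20kE. The 50000-cell libraries gave 232, 425 and 196 in the order 50kB, 50kD and 50kE. The means were 419 ± 90.8 and 284 ± 123 (SD, n = 3 each), and the log2 difference of -0.62 did not pass the exact permutation test (p = 0.3, adjusted p = 0.3). Libraries 50kB and 50kE gave fewer interactions per cell than each of the 9 libraries made from 10000, 20000 or 100000 cells, and 50kD lay within the range of the 20000-cell group.

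**Figure D1:**
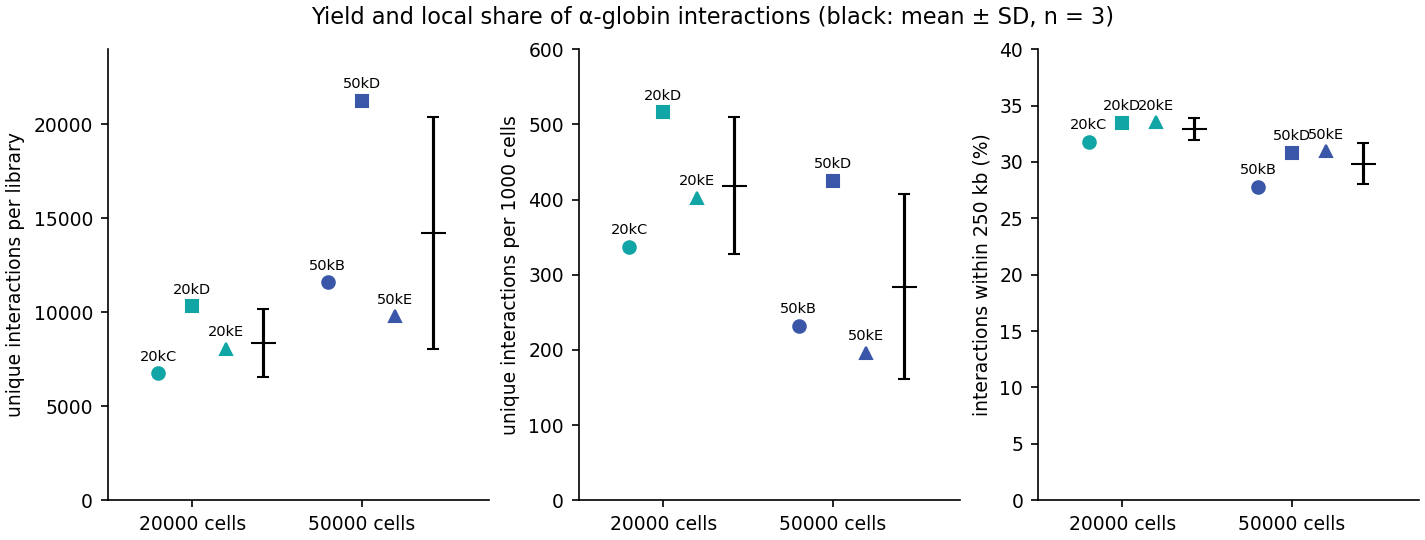
Unique interactions per library (left), per 1000 cells (middle) and the percentage of them within 250 kb of the promoters (right), with 1 point per library and the mean ± SD of 3 libraries in black. The groups overlap in both yields, while the local share is 31.8% or more in the 20000-cell libraries and 31.0% or less in the 50000-cell libraries.

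Interactions in cis, on chromosome 11, made up 65.3%, 64.8% and 65.1% of the 20000-cell libraries and 62.0%, 66.7% and 62.9% of the 50000-cell libraries. The 20000-cell libraries lay within 1 percentage point of each other, and the 50000-cell libraries fell on both sides of them. The means were 65.1% ± 0.269 and 63.9% ± 2.49 (SD, n = 3 each; exact permutation p = 0.4, adjusted p = 0.4).

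The local share, within 250 kb of the promoters, was lower in all 3 libraries from 50000 cells. It was 31.8% in 20kC, with a 95% Wilson interval of 30.7% to 32.9%, 33.5% in 20kD (32.6% to 34.4%) and 33.5% in 20kE (32.5% to 34.6%). It was 27.8% in 50kB (27.0% to 28.6%), 30.8% in 50kD (30.2% to 31.5%) and 31.0% in 50kE (30.1% to 31.9%). The groups did not overlap, but the intervals of 20kC met those of 50kD and 50kE. Such intervals cover counting error only, and they take each interaction as independent. Interactions grouped on a fragment are not, so the intervals can be too narrow even for counting error. The difference of the means was -3.06 percentage points, the exact permutation test gave p = 0.1, the smallest it can give, and the adjusted p was 0.4. Without 50kB the difference was -2.03. The share did not follow the number of cells across the experiment, since it lay at 35.3% in each of the 3 libraries from 10000 cells and between 30.4% and 33.7% in those from 100000 cells.

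In the means, the lower local share went with a higher share of distant cis interactions. Interactions over 1 Mb away in cis made up 28.7%, 26.2% and 27.6% of the 20000-cell libraries and 30.1%, 31.5% and 28.6% of the 50000-cell libraries. The means of 27.5% ± 1.26 and 30.1% ± 1.44 (SD, n = 3 each) differed by 2.52 percentage points, with 28.7% in 20kC just above 28.6% in 50kE (exact permutation p = 0.2). Trans interactions made up 34.7%, 35.2% and 34.9% of the 20000-cell libraries and 38.0%, 33.3% and 37.1% of the 50000-cell libraries. Libraries 50kB and 50kE were thus higher in trans than the 20000-cell libraries, and 50kD was lower.

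Within the local interactions, the balance between the sides was alike in both groups. The enhancer side held 63.7% ± 1.60 of local interactions with 20000 cells and 64.8% ± 1.39 with 50000 cells. The stretch between the viewpoints held 17.9% ± 1.57 and 16.1% ± 0.972, and the opposite side 18.3% ± 0.797 and 19.1% ± 0.571 (SD, n = 3 throughout). The groups overlapped in each of these.

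Cis interactions were then divided into 10 classes of distance. The groups did not overlap in the nearest class outside the viewpoint pair and in the farthest. From 0 to 10 kb from the nearer viewpoint lay 10.4%, 9.44% and 9.60% of cis interactions with 20000 cells and 8.28%, 8.09% and 8.94% with 50000 cells, a difference of -1.37 percentage points. Over 10 Mb away lay 32.7%, 32.0% and 31.7% with 20000 cells and 36.3%, 36.5% and 34.0% with 50000 cells, a difference of 3.50 percentage points. Both differences had an exact permutation p of 0.1 and an adjusted p of 0.5 over the 10 classes. The classes from 10 to 50 kb showed smaller differences than these, at mean shares of 7.07% against 7.29% from 10 to 20 kb and 15.0% against 14.4% from 20 to 50 kb, and both overlapped.

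The decay of interactions with distance had similar slopes, and the groups overlapped. Fitted on a log-log scale over 6 bins from 10 kb to 1 Mb, the slope was -1.30, -1.32 and -1.37 with 20000 cells and -1.34, -1.35 and -1.40 with 50000 cells. The difference of the means was -0.03, beside an SD of 0.04 and 0.03 (exact permutation p = 0.4, adjusted p = 0.4). On the enhancer side alone the means were -1.38 and -1.39 (p = 1, exact permutation). On the opposite side the decay was less steep in both groups, and there the groups did not overlap, with slopes of -1.15, -1.17 and -1.19 against -1.32, -1.21 and -1.35. That difference of -0.13 had an exact permutation p of 0.1, the smallest it can give, and was not adjusted. The fit weighs all bins alike, and the farthest was thin. From 500 kb to 1 Mb both sides together held 128, 171 and 148 interactions with 20000 cells. With 50000 cells they held 198, 352 and 140. The opposite side held the smaller part in each library. Per kb and 100000 interactions it held 1.19, 0.988 and 1.22 with 20000 cells and 0.656, 0.969 and 0.469 with 50000 cells. The enhancer side held 2.61, 2.32 and 2.46 against 2.76, 2.34 and 2.39. In this bin the opposite-side slopes thus rest on far fewer interactions than the pooled counts.

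**Figure D2:**
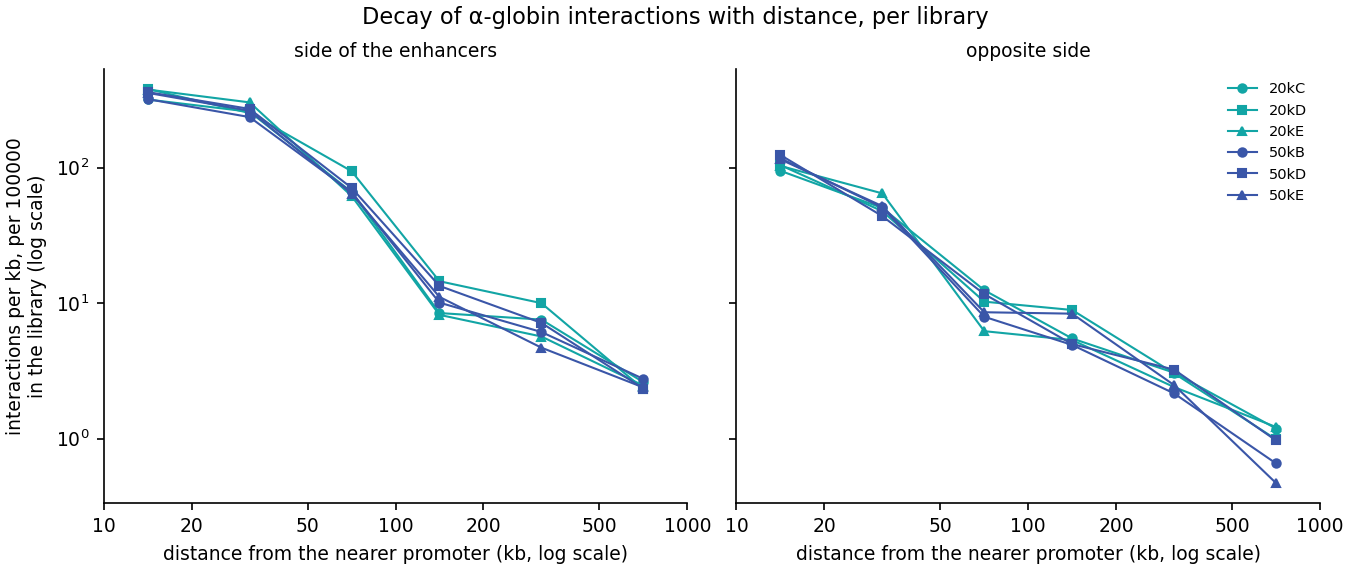
Interactions per kb, scaled to 100000 interactions in the library, against distance from the nearer promoter, both on log scales, for the enhancer side (left) and the opposite side (right), with 1 line per library. The lines of both groups interleave on the enhancer side, and in the farthest bin on the opposite side, from 500 kb to 1 Mb, 50kB and 50kE lie lowest.

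The local profile had its highest enhancer-side windows at the same places in both groups. It was read in 5 kb windows, each scaled to 100000 interactions in its library. On the enhancer side it held peaks on both sides of a dip. The 6 windows with the highest mean on that side were centred 6, 11, 16, 26, 31 and 36 kb from the Hba-a1 viewpoint, and they were also the 6 highest in each group alone.

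The window at 31 kb, chr11:32150001-32155000, held 2195, 1888 and 1876 scaled interactions with 20000 cells and 1933, 1873 and 2214 with 50000 cells. The groups lay on top of each other there, with a log2 fold change of 0.02 and an adjusted p of 0.916 in edgeR's quasi-likelihood test. The window at 16 kb, chr11:32165001-32170000, held 2136, 2759 and 2858 scaled interactions with 20000 cells and 1958, 2334 and 2633 with 50000 cells. Between these peaks the window at 21 kb had the lowest mean, with 1053, 1007 and 1094 against 1027, 1068 and 959. In each of the 6 libraries it lay below the windows at 16 and 31 kb. With 20000 cells its coefficient of variation of 4.13% was the smallest among the tested windows. In 20kE the window at 31 kb was itself no peak, with 1876 against 2038 at 26 kb and 2212 at 36 kb.

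The windows beside the peaks were less even. At 26 kb, chr11:32155001-32160000 held 1365, 1752 and 2038 scaled interactions with 20000 cells and 1001, 1784 and 1143 with 50000 cells, an overlap despite a log2 fold change of -0.36 (edgeR adjusted p = 0.469). At 36 kb, chr11:32145001-32150000 held 1765, 1065 and 2212 against 1191, 1435 and 1357, so that the 20000-cell libraries alone spanned more than a 2-fold range. The windows at 11 kb and 6 kb, chr11:32170001-32175000 and chr11:32175001-32180000, also overlapped, with means of 1798 and 1705 at 11 kb and of 2571 and 2337 at 6 kb.

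**Figure D3:**
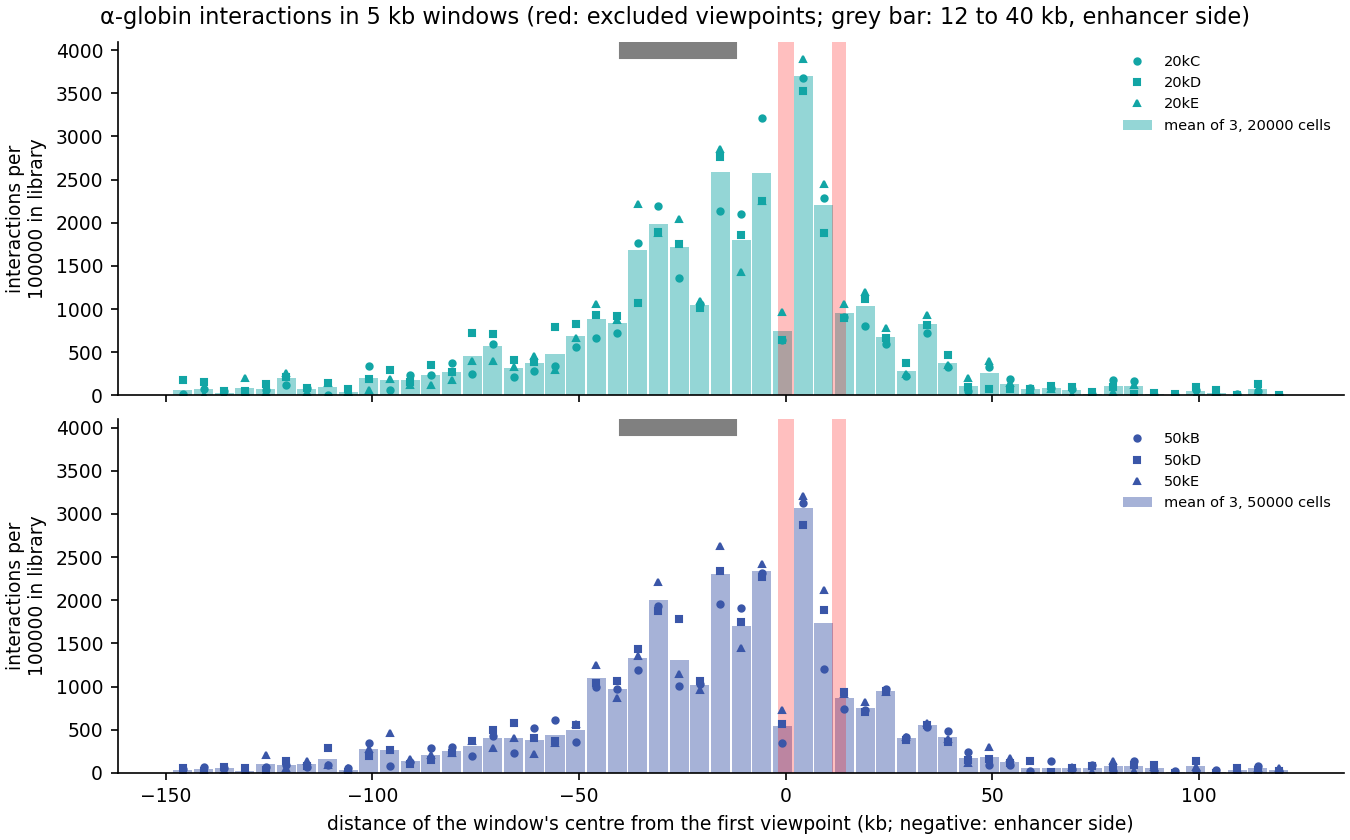
Interactions in 5 kb windows, scaled to 100000 in the library, against the distance of the window's centre from the Hba-a1 viewpoint, with 20000 cells above and 50000 cells below. Bars are means of 3 libraries, points are libraries, red bands are the excluded viewpoints and the grey bar marks 12 to 40 kb on the enhancer side. On the enhancer side the same 6 windows are highest in both groups, with a dip at 21 kb.

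The enhancer side was contacted more often than the opposite side at equal distance in each library. From 12 to 40 kb, the log2 ratio of the enhancer side to the opposite side was 2.39, 2.18 and 2.19 with 20000 cells and 1.99, 2.26 and 2.03 with 50000 cells. The 609, 921 and 848 interactions on the enhancer side stood against 116, 203 and 186 on the opposite side with 20000 cells. With 50000 cells, 892, 1907 and 864 stood against 225, 398 and 212. The mean ratios of 2.25 ± 0.12 and 2.09 ± 0.15 (SD, n = 3 each) differed by -0.16, with the groups overlapping (exact permutation p = 0.3, adjusted p = 0.4).

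Across the 35 windows with a mean of at least 10 interactions per library, edgeR called 0 at an adjusted p under 0.05, which is 0% of those tested. At an unadjusted p under 0.05 there were 4 windows, or 11.4%, and DESeq2 called 0 with 1 at an unadjusted p under 0.05. The scaled values of the groups did not overlap in 3 windows, or 8.57%, of which 2 were lower with 50000 cells (5.71%) and 1 was higher (2.86%). Among the 20 ways to divide 6 libraries into groups of 3, a share of 0.1 separates the values of a window fully. The 8.57% is not above that share, so the lack of overlap does not set these windows apart. The median log2 fold change over the 35 windows was -0.13 with 23 windows lower with 50000 cells, but with DESeq2's size factors in edgeR, added after the data were seen, the median moved by 0.12 to -0.01 with 20 lower. Standard errors were back-calculated as the absolute log2 fold change over the square root of edgeR's F statistic, and are approximate. They ran from 0.13 to 0.92, with a median of 0.30, so small changes could not be seen in the thinner windows.

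The 3 tested windows without overlap, named here after their values were seen, lay between the viewpoints and on the opposite side. Some thinner windows, on both sides, also lacked overlap, but they fell below the count filter. Between the viewpoints, chr11:32185001-32190000 held 3678, 3524 and 3902 scaled interactions with 20000 cells and 3132, 2871 and 3204 with 50000 cells, a log2 fold change of -0.25 ± 0.19 (SE; edgeR adjusted p = 0.488). It was the highest window of the profile in both groups. Of its 13 fragments, 11 had a lower mean with 50000 cells. Their counts make up the window's own sum, so they add no separate evidence, and the share over all local fragments was not computed.

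On the opposite side, chr11:32205001-32210000, 11 kb from the Hba-a2 viewpoint, held 593, 658 and 783 scaled interactions with 20000 cells and 966, 946 and 939 with 50000 cells. This was the only one of the 3 windows that was higher with 50000 cells, with a log2 fold change of 0.51 ± 0.13 (SE; edgeR adjusted p = 0.0697, DESeq2 adjusted p = 0.245). Of its 18 fragments, 12 had a higher mean with 50000 cells, which again are parts of the same sum and no separate evidence. The fragment that moved most, chr11:32204980-32205648, held 0, 3 and 1 interactions in the 20000-cell libraries and 12, 30 and 13 in the 50000-cell libraries.

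Its neighbour but one, chr11:32215001-32220000, 21 kb from the Hba-a2 viewpoint, differed in the other direction. It held 727, 813 and 932 scaled interactions with 20000 cells and 526, 560 and 582 with 50000 cells, with a log2 fold change of -0.55 ± 0.14 (SE; edgeR adjusted p = 0.0697, DESeq2 adjusted p = 0.641). Of its 17 fragments, 11 had a lower mean with 50000 cells, and none separated the groups. In the window between the viewpoints 3 of 13 fragments did so, and in the one at 11 kb 4 of 18. These are parts of the window sums too, and the share over all local fragments was not computed. The fragment that moved most there, chr11:32218130-32218753, held 0, 12 and 23 interactions against 7, 12 and 4.

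The other windows that the rule named did not separate the groups. On the opposite side, chr11:32200001-32205000 held 801, 1113 and 1193 scaled interactions with 20000 cells and 725, 711 and 827 with 50000 cells (log2 fold change -0.44, edgeR adjusted p = 0.113). On the enhancer side, chr11:32130001-32135000 held 564, 823 and 659 against 354, 551 and 571, and 46 kb out chr11:32135001-32140000 held 667, 929 and 1056 against 992, 1040 and 1255. These neighbouring windows differed in opposite directions, at log2 fold changes of -0.46 and 0.33 (edgeR adjusted p = 0.438 and 0.384). The next window inward, chr11:32140001-32145000, held 727, 920 and 870 against 975, 1059 and 867 (log2 fold change 0.23, edgeR adjusted p = 0.469). Part of the window chr11:32195001-32200000 is the excluded Hba-a2 viewpoint, so its count covers less than 5 kb. This window had the highest mean over all 6 libraries on the opposite side and held 905, 900 and 1056 against 742, 941 and 908. It was the highest there in neither group alone, since the following window was higher with 20000 cells and chr11:32205001-32210000 with 50000 cells. When the window borders were moved to the former midpoints, 0 of 38 windows were called and 0 had an unadjusted p under 0.05 in edgeR.

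**Figure D4:**
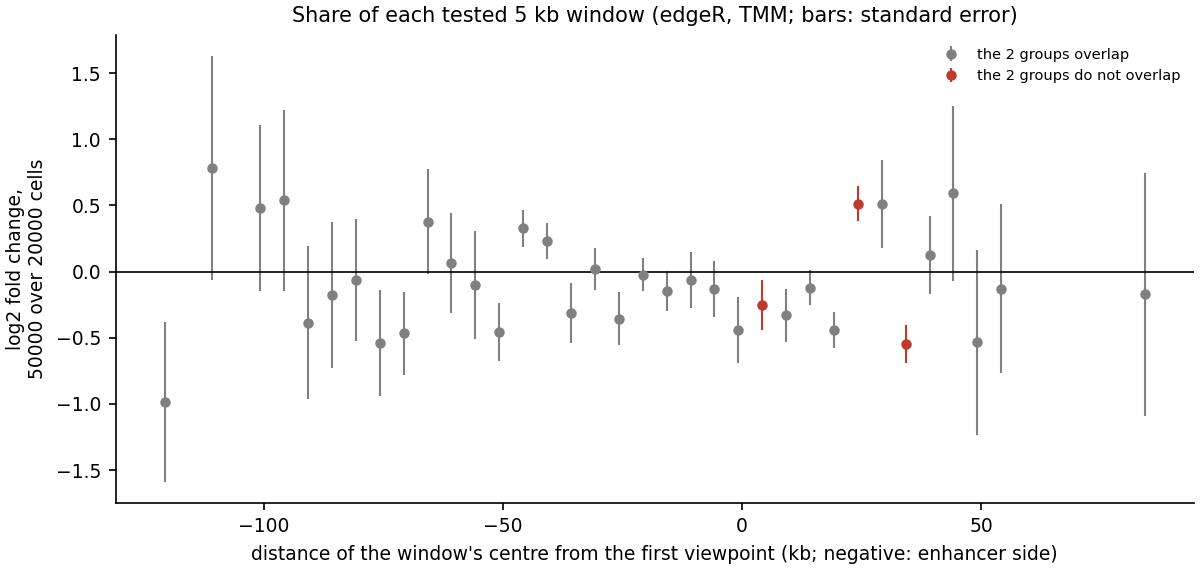
Log2 fold change of each of the 35 tested windows, 50000 over 20000 cells, against the distance of its centre from the Hba-a1 viewpoint, from edgeR with TMM scaling. Bars are approximate standard errors, back-calculated from edgeR's F statistic. Red points mark the 3 windows whose libraries do not overlap, 1 between the viewpoints and 2 of opposite direction on the far side.

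Replicate profiles correlated strongly in both groups. In 103 windows of 5 kb, the pairwise r-values averaged 0.963 with 20000 cells (0.960 to 0.969) and 0.973 with 50000 cells (0.967 to 0.981). Pairs that crossed the groups averaged 0.968 (0.940 to 0.978), between the averages of the groups. These r-values are across windows of one locus, which are not independent, and the few windows near the promoters weigh most. At the level of 897 single fragments they fell to 0.719 and 0.776, with 0.744 across the groups.

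The spread between replicates was set against counting error. The dispersion index, the variance between replicates over that expected from counting alone, was 4.34 with 20000 cells and 4.23 with 50000 cells over the 35 windows. The median coefficient of variation of a window was 25.5% and 24.4%, where counting error alone would give 14.4% and 12.7%. An index of 1 holds only where interactions are counted independently, which those grouped on a fragment are not. Where replicates differ by more than counting error, the index also grows with depth. The tested windows held 2005, 3150 and 2577 interactions with 20000 cells and 3020, 6055 and 2810 with 50000 cells. Similar indices therefore do not mean equal spread in the groups. In 2 kb windows the index was 4.37 with 20000 cells and 4.68 with 50000 cells, and in 10 kb windows 4.97 and 4.23, so that its order turned with the window size. The difference was not tested.

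The detection of single fragments near the promoters was nearly complete on the enhancer side and thinner opposite. Listed fragments are those given for the 12 libraries of the experiment, and 227 of the 897 within 250 kb had no count in these 6. Of 63 listed fragments between 12 and 40 kb on the enhancer side, 50 were found in all 3 libraries with 20000 cells and 56 in all 3 with 50000 cells. Of the 60 listed across from them on the opposite side, 9 and 22 were. All 20 fragments between the viewpoints were found in every library. Single libraries held 87.3% to 93.7% of the enhancer-side fragments with 20000 cells and 90.5% to 95.2% with 50000 cells, against 41.7% to 56.7% and 53.3% to 78.3% opposite.

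Far from the promoters, libraries hardly shared fragments. Of 15164 listed cis fragments over 1 Mb away, 3 were found in all 3 libraries with 20000 cells and 4 in all 3 with 50000 cells. Of the 1988 found with 20000 cells, 17.2% were also found with 50000 cells, and of the 3881 found with 50000 cells, 8.79% were also found with 20000 cells. Within 250 kb, 78.3% of the 480 fragments found with 20000 cells and 66.4% of the 566 found with 50000 cells were found in both. Detection itself differed as much. Single libraries held 3.88% to 5.67% of the listed distant fragments with 20000 cells and 5.77% to 14.1% with 50000 cells. Within 250 kb they held 29.9% to 39.2% and 34.7% to 50.8%. Sharing was not set against the overlap that these rates alone would give.

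Distant interactions nonetheless came in groups on the same fragment of one library. The highest count on a distant cis fragment was 18, at chr11:44335705-44336179 in 20kC, which held 4 in 50kD and 0 in the other libraries. The next, chr11:93793584-93794636, held 17 interactions in 20kC and 0 elsewhere. More distant fragments held 4 interactions than held 3 in each of the 6 libraries, with 79 fragments against 62 in 20kC and 409 against 378 in 50kD, but only 136 against 135 in 50kE. Among fragments of other chromosomes this held in 1 of the 6 libraries, 50kD.

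The grouping was compared between 20000 and 50000 cells. Averaged over interactions, the number found on the same distant cis fragment was 5.16, 4.76 and 5.18 with 20000 cells and 4.58, 4.12 and 4.52 with 50000 cells. The groups did not overlap, and the means of 5.03 ± 0.235 and 4.41 ± 0.247 (SD, n = 3 each) differed by -0.63 (exact permutation p = 0.1, adjusted p = 0.2 over 4 comparisons added after the data were seen). Fragments with 1 interaction made up 31.9%, 32.6% and 28.6% of distant fragments with 20000 cells and 19.7%, 19.0% and 25.7% with 50000 cells. Fragments with 8 or more made up 6.28%, 5.47% and 8.29% against 3.63%, 2.06% and 3.66%. The shares at both ends of the distribution were thus smaller in each library from 50000 cells. Totals also differed between these libraries, and the part of depth in these shares was not tested. The libraries from 10000 cells held 31.0% to 40.7% single-interaction fragments and those from 100000 cells 12.2% to 13.3%. The mean number on the same distant fragment did not follow the number of cells, since it was 4.81, 5.22 and 3.91 with 10000 cells and 5.27, 5.30 and 5.28 with 100000 cells. With 100000 cells it was thus above every 20000-cell library, and 1 library from 10000 cells lay below every 50000-cell library.

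**Figure D5:**
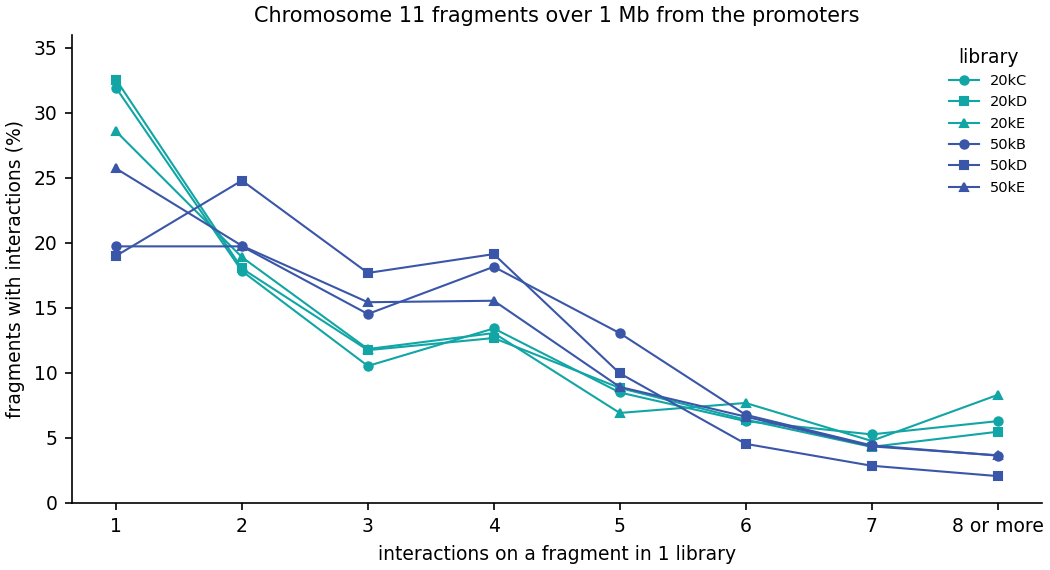
Percentage of distant cis fragments (over 1 Mb from the promoters) that hold a given number of interactions, with 1 line per library. Fragments with 1 interaction and with 8 or more are less frequent in the 3 libraries from 50000 cells, and each line is higher at 4 than at 3.

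On other chromosomes the groups overlapped in this measure, with 4.34, 4.58 and 4.31 against 4.52, 3.74 and 4.14 interactions on the same fragment. The difference of -0.27 had an exact permutation p of 0.4 and an adjusted p of 0.4. When each library's total was divided by this number, a measure added after the data were seen, the yields became 1552, 2255 and 1868 with 20000 cells and 2563, 5679 and 2364 with 50000 cells. These no longer overlapped, with a log2 difference of 0.80 (exact permutation p = 0.1, adjusted p = 0.2). Without 50kD the log2 difference was 0.40.

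The number of distinct fragments followed the same order as the yield. The 20000-cell libraries touched 1966, 2800 and 2199 fragments and the 50000-cell libraries 3070, 5652 and 2764. Reduced by calculation to 4404 cis interactions each, with trans interactions left aside, they touched 951, 1204 and 979 cis fragments with 20000 cells and 1312, 1902 and 1191 with 50000 cells. At this number of cis interactions 50kD touched the most fragments and 50kE fewer than 20kD. The order of the 6 libraries was still that of their totals, and 20kC, with 4404 cis interactions, was not reduced. Libraries from 100000 cells touched 2035, 2122 and 2087 cis fragments at this number. Such a reduction splits interactions grouped on a fragment, so these values are not free of depth, and its part was not tested. The mean difference between 20000 and 50000 cells was 424, and 207 without 50kD.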

How the data were processed

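The authors deposited interaction counts per DpnII fragment. Per the methods they removed PCR duplicates with a strict filter that also discards reads differing by 1 or 2 in their ends, which lowers totals, and the submitters' processing notes name mm9, Trim Galore and Bowtie (versions not given in the sources used here). One of the deposited tables was used, with the 12 libraries of the LI-Capture-C experiment, which were grouped by the cell number in their column names, and the column letters could not be matched to replicate numbers. Totals ranged from 6742 to 21250 in the 6 libraries. Fragments were assigned to 5 kb windows by their midpoint. Windows with a mean of at least 10 counts were tested with edgeR 4.0.16 (quasi-likelihood, TMM, Benjamini-Hochberg), with DESeq2 1.42.0 as an alternative. Single values were compared by exact two-sided permutation tests computed with NumPy 2.4.6, and Wilson intervals were computed with SciPy 1.17.1. The window test was checked on simulated data. Windows named were the 6 highest on the enhancer side, the 3 highest opposite and those with the smallest p in each direction. The dip at 21 kb and the tested windows without overlap were added after their values were seen. Cell numbers, windows and measures were chosen with earlier results of these data known. Promoters are RefSeq sequences, and the file coordinates were not converted between builds.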

Additional observations from a re-analysis of the deposited data

How the results depend on the processing

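Of the alternative values, 82 kept their direction and side of the threshold or stayed within the spread, 11 moved and 2 reversed. The reversed values were the yield per cell, at a log2 difference of -0.62 (chosen after the data were seen), and the trans grouping averaged over fragments, at 0.19. The dispersion index with 20000 cells was 4.97 in 10 kb windows, against 4.23 with 50000 cells. Mean r-values with 20000 cells were 0.928 in 2 kb windows, 0.974 in 10 kb windows and 0.724 on the log2 scale, and with 50000 cells 0.932, 0.985 and 0.740. Leaving out 1 library at a time, ranges were 0.37 to 0.93 for the log2 total, -2.62 to -0.279 for the cis percentage, -3.63 to -2.03 for the local percentage, -0.06 to -0.01 for the slope, -0.25 to -0.09 for the enhancer-side ratio, -0.467 to -0.0769 for trans grouping and 207 to 562 for distinct fragments. They were 3.71 to 4.91 and 3.05 to 4.84 for the dispersion index, and 0.960 to 0.969 and 0.967 to 0.981 for r, with 20000 and 50000 cells. The window test called 0 in each of these fits, with 2 to 5 windows at an unadjusted p under 0.05 in edgeR, and 0 with each other window size, scaling and filter tried. The columns carry letters and no replicate numbers, and D and E recur in both groups. With the letter as a replicate block, added after the data were seen, edgeR called 0 windows with 2 at an unadjusted p under 0.05. The deviations from the group means over the 35 windows correlated at 0.18 for 20kD and 50kD and at -0.11 for 20kE and 50kE. Pairs of unlike letters ran from -0.60 (20kC and 50kD) to 0.60 (20kE and 50kD). These values therefore cannot show whether a letter marks a pair. No label explains the letters, and they were not taken as pairs. The causes were not tested. With 3 libraries a group no exact permutation test could pass 0.05, and the depth of the libraries limits what thin windows can show.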
